A study of Mus musculus with 8 samples.

Results

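The ribosomal protein genes of the cytosolic ribosome were examined one by one in mouse lung tumors of the *K* model with and without a guide RNA against *Setd2*, the gene of the enzyme that trimethylates histone H3 at lysine-36. A gene was a member if it was protein-coding in GENCODE M21 and its symbol was *Rpl* or *Rps* with a number, *Rpsa*, *Rplp0*, *Rplp1*, *Rplp2* or *Fau*. Pseudogenes and the *Rps6k* kinases were left out, which gave 84 members among 48709 genes in the table. Of these, 78 were canonical proteins of the ribosome and 6 were paralogs, *Rpl3l*, *Rpl7l1*, *Rpl10l*, *Rpl22l1*, *Rpl39l* and *Rps27l*. *Rps4l* is annotated as a transcribed processed pseudogene and *Rack1* and *Rpl36al* are spelled otherwise, so these genes were not members and are given below for comparison.

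RNA from 8 tumors was sequenced, 4 in *K-Ctrl* and 4 in *K-Setd2KO*. All mice were on a mixed B6J/129S4vJae background. Tumors were started in the lung by a lentivirus that carries Cre, Cas9 and a guide RNA, which was against GFP in *K-Ctrl* and against *Setd2* in *K-Setd2KO*. The tumors were taken whole, so host cells of the lung were included, and the number of mice was not given in the sources used here. Mice of both sexes were used, and the age of each mouse is not given here. The labels speak both of frozen tumors and of cell lines for the RNA extraction; the samples are called tumors here. Nothing says that each tumor came from its own mouse, so p-values measure the spread between these samples.

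The ribosome is built from a small subunit, which reads the mRNA, and a large subunit, which joins amino acids. Each canonical protein is needed in about equal amounts, and the mRNAs of most of them start with a C followed by a run of pyrimidines, the 5′ terminal oligopyrimidine (TOP) tract, through which mTORC1 signaling controls their translation together. Paralogs such as *Rpl3l* in muscle or *Rpl10l* in testis can take the place of the common protein in a few tissues. Transcript counts do not measure this translational control.

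The annotated first bases were read to see which members carry this tract. A RefSeq promoter entry on GRCm38.p6 was found for 64 members, and in 14 of them the annotated start was a C followed by at least 4 pyrimidines, which is 21.9% against 2.73% of 16430 protein-coding genes. The windows below hold 10 bases before the start and 20 from it, 5′ to 3′ on the strand of the gene, with the pyrimidine run in capitals. The first 5 members have the run and the last 3 do not at that exact base, although *Rpl12* and *Rpl22l1* show a pyrimidine stretch from the next base on. They lie at chr4:86857348-86857377 (minus strand, *Rps6*), chr7:141447641-141447670 (plus, *Rplp2*), chr19:6057937-6057966 (plus, *Fau*), chr7:4792955-4792984 (plus, *Rpl28*), chr17:33955646-33955675 (minus, *Rps18*), chr2:32961702-32961731 (plus, *Rpl12*), chr3:28805498-28805527 (plus, *Rpl22l1*) and chr17:24727816-24727845 (plus, *Rpl3l*).
Rps6: gaagtcgggcCTCTTTTTCgtgacgcctcc
Rplp2: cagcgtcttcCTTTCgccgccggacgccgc
Fau: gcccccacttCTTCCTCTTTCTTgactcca
Rpl28: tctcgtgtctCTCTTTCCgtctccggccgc
Rps18: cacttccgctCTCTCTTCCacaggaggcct
Rpl12: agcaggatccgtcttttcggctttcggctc
Rpl22l1: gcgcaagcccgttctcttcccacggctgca
Rpl3l: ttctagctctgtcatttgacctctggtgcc

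Within the 300 bases around the start, searched on both strands, CCGGAAG, the core of ETS-family motifs, was present in 40.6% of the 64 members and 13.4% of protein-coding genes. AAGATGG, the core of the YY1 motif, was present in 17.2% and 7.28%, and TATAAA in 10.9% and 14.3%. The 14 members with a TOP-like start had a median log2 fold change between *K-Setd2KO* and *K-Ctrl* of 0.34 and the 48 tested members without one had 0.31. The rule needs a C at the exact annotated base, so the 48 can include mRNAs whose tract starts at a nearby base. The medians therefore compare annotated starts, not mRNAs with and without the tract. Members with and without CCGGAAG had medians of 0.32 and 0.33.

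The shallowest library, *K-Setd2KO* replicate 4, held 5806599 counts and the deepest, *K-Ctrl* replicate 3, held 21290402. *Setd2* mRNA itself was not lower in *K-Setd2KO* (log2 fold change -0.05 ± 0.115 SE, adjusted p = 0.824, edgeR), so the mRNA count gave no check of the labels. Markers of several host cell types differed. The summed level of 6 pan-leukocyte markers in *K-Setd2KO* was 518 to 747 CPM (counts relative to the TMM-scaled library size) against 971 to 1745 CPM in *K-Ctrl*, with 5 of the 6 called lower. The 7 macrophage markers summed to 159.9 to 315 CPM against 474 to 1447 CPM, with 4 called lower, and 6 endothelial markers summed to 162 to 418 CPM against 434 to 1619 CPM, with 2 called lower. The 6 T cell markers summed to 7.94 to 34.8 CPM against 44.1 to 108 CPM, with 1 called lower. The 6 fibroblast markers summed to 141 to 583 CPM against 497 to 1121 CPM, with 1 called lower. The 7 alveolar type 2 markers summed to 53399 to 74494 CPM against 44244 to 65496 CPM, with 1 called higher. The 6 B cell markers, with 0 called and a median log2 fold change of -2.0, summed to 117, 28.1, 14.7 and 112 CPM in *K-Setd2KO* tumors 1 to 4 against 17.2 to 79.2 CPM in *K-Ctrl*. The 5 neutrophil markers, with 0 called and a median of 0.54, summed to 42.5, 13.8, 18.8 and 56 CPM against 15.9 to 20.3 CPM. The 5 epithelial markers summed to 1903 to 2332 CPM against 1454 to 2220.4 CPM, with 2 called higher, and the 8 proliferation markers to 118 to 236 CPM against 317 to 341 CPM, with 2 called lower. The SE of a log2 fold change and the adjusted p are those of the fit over all genes. The part of these marker shifts in the values of the members was not tested, and in whole tumors fewer cells of a type and less RNA per cell cannot be told apart.

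Of the 84 members, 82 had enough counts to be tested and 8 were called higher in *K-Setd2KO* at an adjusted p under 0.05, while 0 were called lower (edgeR quasi-likelihood test, Benjamini-Hochberg over 14929 genes). That is 9.76% of the members tested, beside 4.97% of all genes tested that were called higher and 7.74% called lower. The called members were *Rpl32*, *Rpl36*, *Rpl3*, *Rpl12* and *Rpl34* of the large subunit, *Rps6* of the small subunit, and the paralogs *Rpl22l1* and *Rpl7l1*. Without adjustment, 26 members had p under 0.05, all of them higher, beside 13.6% of all genes that were higher at this level. The 2 groups did not overlap in 16 of the 82 members tested, each with all 4 *K-Setd2KO* tumors above all 4 *K-Ctrl* tumors. Of all genes tested, 9.06% did not overlap in this direction and 20.3% in either direction. Leaving out 1 tumor at a time moved the number of called members between 2 and 18. It was 2 without *K-Ctrl* replicate 1 or 2, where 1.8% and 2.19% of all genes were called higher, and 3 without *K-Ctrl* replicate 3 or *K-Setd2KO* replicate 3, beside 1.49% and 2.41%. It was 5 without *K-Setd2KO* replicate 1 or 2, beside 3.32% and 5.67%, and 6 without *K-Ctrl* replicate 4, beside 4.4%. It was 18 without *K-Setd2KO* replicate 4, beside 3.35%.

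**Figure D1:**
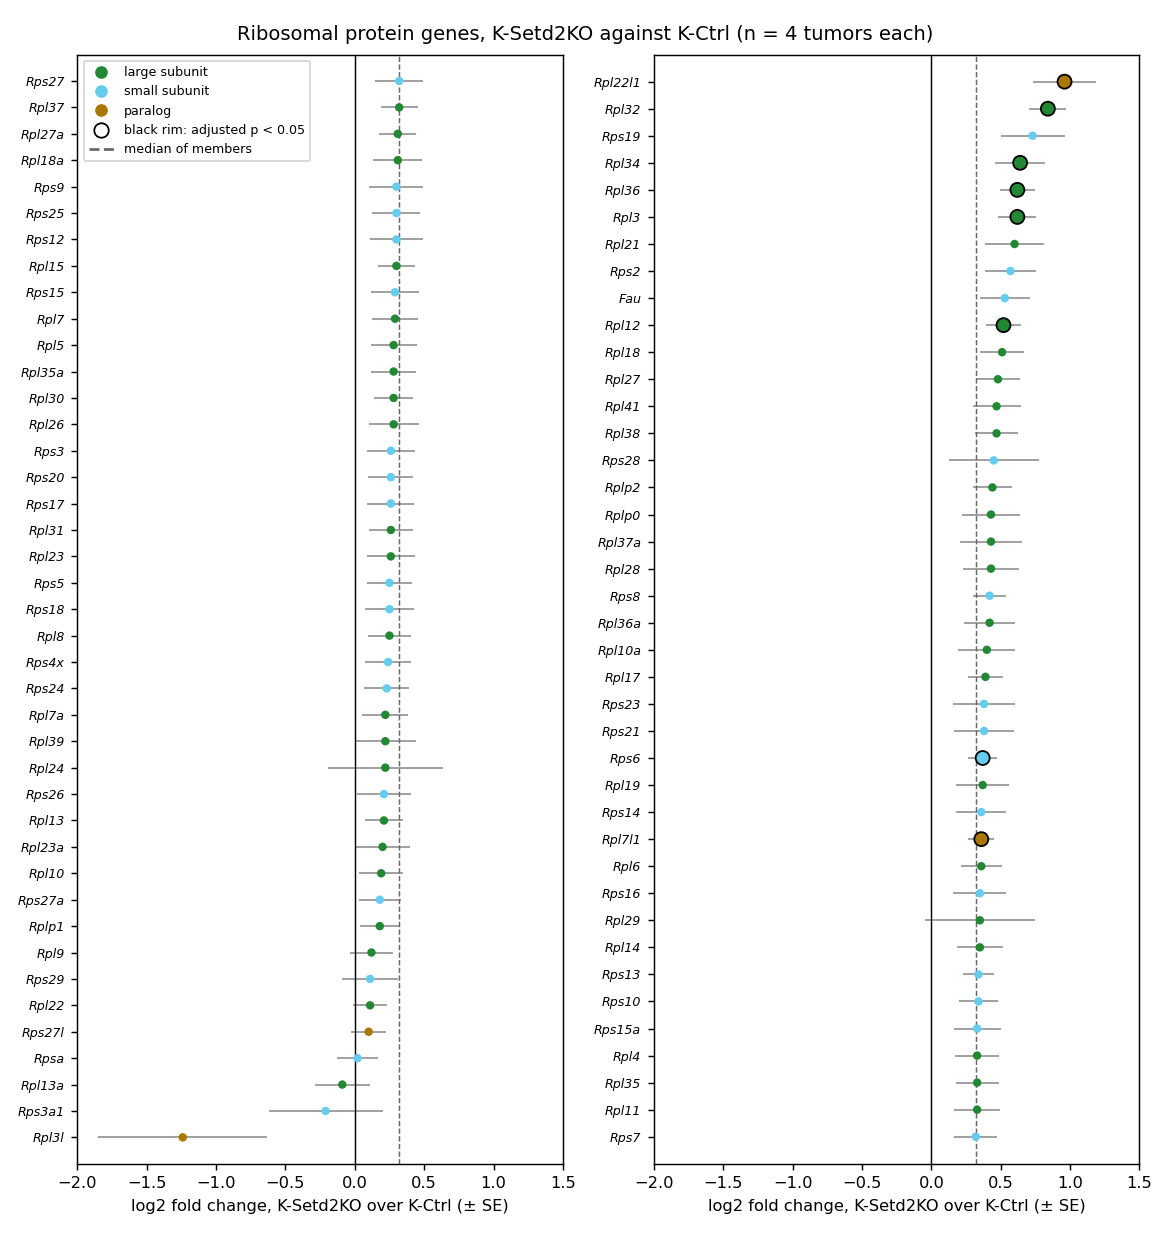
Log2 fold change of 81 of the 82 tested members between *K-Setd2KO* and *K-Ctrl* with its standard error (n = 4 tumors each), in 2 panels in order of size, colored by subunit or as a paralog. Rimmed points are the 8 called members, the dashed line is the median of the members at 0.32, and *Rpl3l*, *Rps3a1* and *Rpl13a* are the 3 members left of 0.

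*Rpl32*, a large-subunit protein (chromosome 6, 115805505 to 115808747, minus strand), had the smallest p among the members. It was at 392, 341, 353 and 422 CPM in *K-Ctrl* tumors 1 to 4 and at 746, 589, 721 and 647 CPM in *K-Setd2KO* tumors 1 to 4. All *K-Setd2KO* tumors were above all *K-Ctrl* tumors, with means of 676 ± 71.7 and 377 ± 36.9 CPM (SD, n = 4 each), a log2 fold change of 0.84 ± 0.134 (SE) and an adjusted p of 0.00834 by edgeR. *Rpl32* stayed called under all 18 other settings tried, with log2 fold changes of 0.79 to 0.92.

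The next by p was *Rpl36*, also of the large subunit (chromosome 17, 56613395 to 56614243, plus strand), at 92.9, 80.4, 91.6 and 85.7 CPM in *K-Ctrl* and 110.2, 151, 134 and 146 CPM in *K-Setd2KO*. The groups did not overlap, the log2 fold change was 0.62 ± 0.125 (SE) with an adjusted p of 0.0158 (edgeR), and the call was kept in 17 of 18 settings. *Rpl3*, one of the longest ribosomal proteins and placed near the site of peptide bond formation (chromosome 15, 80077794 to 80091868, minus strand), was at 449, 419, 526 and 458 CPM against 632, 739.6, 812 and 654 CPM. Its highest *K-Ctrl* tumor, replicate 3, stayed below its lowest *K-Setd2KO* tumor, replicate 1. The log2 fold change of *Rpl3* was 0.62 ± 0.136 (SE), with an adjusted p of 0.022 (edgeR) and a call in 15 of 18 settings. Of the called members, 4 share most of their sequence, since 81.1% of the 50-base words of the *Rpl36* transcript, 85.6% of those of *Rpl3*, 84.6% of those of *Rps6* and 57.3% of those of *Rpl22l1* also occur in transcripts of other genes, and how the authors' counting treated such reads is not stated.

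*Rpl12*, a protein at the base of the stalk (chromosome 2, 32961559 to 32965345, plus strand), was at 382, 358, 346 and 429 CPM in *K-Ctrl* and 503, 614, 547 and 507 CPM in *K-Setd2KO*. There was no overlap, and the log2 fold change was 0.52 ± 0.127 (SE, adjusted p = 0.0306, edgeR). *Rps6*, the small-subunit protein that S6 kinases phosphorylate downstream of mTORC1 (chromosome 4, 86854660 to 86857412, minus strand), was at 301, 283, 284 and 286 CPM against 358, 386, 395 and 352 CPM. *Rps6* showed little spread within groups, 289 ± 8.6 and 373 ± 21 CPM (SD, n = 4 each), and its log2 fold change of 0.37 ± 0.103 (SE, adjusted p = 0.0464, edgeR) lay near the median of the members. *Rpl34*, of the large subunit (chromosome 3, 130726831 to 130730398, minus strand), was at 24.3, 25.9, 25.2 and 27.3 CPM against 30.3, 41.9, 34.6 and 54.1 CPM. Its highest value was in *K-Setd2KO* replicate 4, a tumor in which most members were low, and the log2 fold change was 0.64 ± 0.182 (SE, adjusted p = 0.0484, edgeR). The calls of *Rpl12*, *Rps6* and *Rpl34* were kept in 11, 5 and 4 of the 18 settings. Of the 8 called members, *Rpl32*, *Rpl3*, *Rpl12*, *Rpl22l1* and *Rpl7l1* each overlap 1 annotated gene on the opposite strand, and as the strand setting of the counting is not stated, reads of such partners cannot be told apart.

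**Figure D2:**
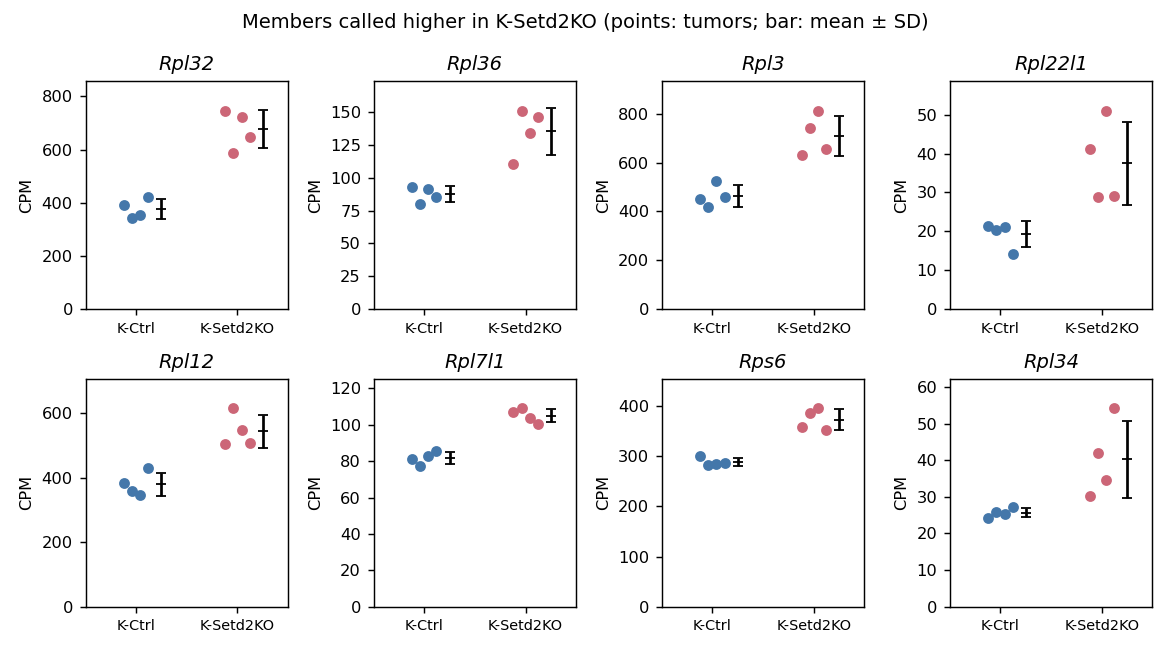
CPM of the 8 called members in each tumor, on axes that start at 0, with K-Ctrl in blue and K-Setd2KO in red and the mean ± SD (n = 4) as a bar beside the points. In every panel the lowest *K-Setd2KO* tumor is above the highest *K-Ctrl* tumor, for *Rpl32* at 589 against 422 CPM.

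The members as a whole sat close together. The median log2 fold change was 0.32 over the 82 members, with 0.25 and 0.41 at the quartiles, beside 0.03 over all genes tested. Of the members, 79 were above 0, beside 52.7% of all genes tested. Large-subunit canonical members had a median of 0.33 (46 genes, 5 or 10.9% called) and small-subunit members 0.3 (32 genes, 1 or 3.12% called), beside 4.97% of all genes called higher, and 67 of the 78 canonical members lay within 0.25 of the median. Scaling that left the members out of the normalization factors gave the same count of 8 and the same median of 0.32. With the trend of exon length removed in each tumor, the median was 0.27 beside 0.04 over all genes, and 6 members were called, beside 5.16% of all genes called higher. The members are shorter than most genes, with a median exon length of 1657 bases beside 4132 bases over the 13354 protein-coding genes tested.

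To ask which members departed from the rest, each tumor was scaled to the mean of the ribosomal protein genes and the test was repeated over all genes. This scale is set by the canonical members themselves, so it removes their common difference by construction. The shares of all genes given beside the members are therefore not a like comparison. On this scale 0 of 82 members were called in either direction, beside 14.1% of all genes, with the lowest adjusted p at 0.0778 (edgeR), and 3 members had an unadjusted p under 0.05, *Rpl32*, *Rpl22l1* and *Rpl3l*, beside 29.2% of all genes. The largest positive departures of canonical members were 0.56 for *Rpl32*, 0.39 for *Rpl34* and 0.38 for *Rps19*, and the largest negative ones -0.57 for *Rps3a1*, -0.39 for *Rpl13a* and -0.31 for *Rpsa*. Without *K-Setd2KO* replicate 2, *Rpl32* and *Rpl22l1* were called higher on this scale. Leaving out any other tumor gave 0 calls. The shares of all genes called in these fits are not given here.

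The members called higher were not the only ones with large differences. *Rps19*, the small-subunit protein mutated most often in Diamond-Blackfan anemia, was at 191, 159.6, 181 and 182 CPM in *K-Ctrl* and 243, 390.2, 367 and 181 CPM in *K-Setd2KO*. *K-Setd2KO* replicates 2 and 3 were far above the other 6 tumors while replicate 4 lay among the *K-Ctrl* tumors, and the log2 fold change of 0.73 ± 0.23 (SE) did not pass the test (adjusted p = 0.068, edgeR). *Rps19* was called higher with DESeq2 (0.72, adjusted p = 0.0316) and by edgeR without *K-Setd2KO* replicate 4 (0.9, adjusted p = 0.0267). At the other end, *Rpsa*, which is also known as a laminin receptor precursor, was at 341, 364, 358 and 347 CPM against 329, 448, 365 and 286 CPM. The groups overlapped, with a log2 fold change of 0.02 ± 0.148 (SE, adjusted p = 0.948, edgeR).

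Among the proteins of the stalk, through which elongation factors are recruited, *Rplp0* was at 298, 312, 299 and 479.6 CPM in *K-Ctrl* and 577, 438, 502 and 348 CPM in *K-Setd2KO*. *K-Ctrl* replicate 4 alone stood among the *K-Setd2KO* tumors, and the log2 fold change of 0.43 ± 0.21 (SE) did not pass (adjusted p = 0.21, edgeR). *Rplp2* did not overlap between the groups, at 251 to 290.4 CPM and 334 to 457 CPM, and its log2 fold change of 0.44 ± 0.138 (SE) had an adjusted p of 0.0684 (edgeR). The third stalk protein, *Rplp1*, had a log2 fold change of 0.18 ± 0.142 (SE, adjusted p = 0.441, edgeR). So the 3 stalk genes, whose proteins work as 1 complex, had differences of 0.18 to 0.44, all above 0 and none called by edgeR, while DESeq2 called *Rplp2* (0.43, adjusted p = 0.0448).

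*Rpl5* and *Rpl11*, which bind the 5S RNA and, when free, the p53 regulator MDM2, had log2 fold changes of 0.28 ± 0.165 and 0.33 ± 0.164 (SE, adjusted p = 0.282 and 0.212, edgeR). *Rpl23*, another MDM2-binding protein, had 0.26 ± 0.171 (SE, adjusted p = 0.337, edgeR). The genes that encode a ribosomal protein fused to ubiquitin or a ubiquitin-like protein differed in size. *Fau* was at 255, 177, 226 and 284 CPM against 303, 433, 309.8 and 311 CPM without overlap (log2 fold change 0.53 ± 0.181 SE, adjusted p = 0.0866, edgeR), and *Rps27a* had 0.18 ± 0.15 (SE, adjusted p = 0.445, edgeR).

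The 4 X-linked members, *Rpl10*, *Rpl36a*, *Rpl39* and *Rps4x*, had log2 fold changes of 0.19 to 0.42 with 0 called. By *Xist* and Y-linked counts, 1 of the 4 *K-Ctrl* tumors and 3 of the 4 *K-Setd2KO* tumors were from females, so sex and genotype are in part confounded. With a sex term in the edgeR fit, 4 members were called (*Rpl32*, *Rpl36*, *Rpl3* and *Rpl22l1*), beside 3.03% of all genes called higher, and the X-linked members had log2 fold changes of 0.16 to 0.49 with 0 called. *Rpl36al*, the autosomal relative of *Rpl36a*, had 0.42 ± 0.16 (SE, adjusted p = 0.118, edgeR), and *Rack1*, a scaffold protein that sits on the small subunit, had 0.19 ± 0.144 (SE, adjusted p = 0.403, edgeR). Of the 84 members, 30 (35.7%) carry annotated snoRNA genes inside their span, beside 1.25% of protein-coding genes. Canonical members with a snoRNA had a median log2 fold change of 0.3 (30 tested, 3 or 10% called) and those without had 0.33 (48 tested, 3 or 6.25% called), beside 4.97% of all genes called higher.

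The 8 tumors differed in the common level of the members. Relative to each gene's mean over all tumors, the canonical members averaged -0.07, -0.29, -0.12 and -0.13 (log2) in *K-Ctrl* tumors 1 to 4 and 0.21, 0.41, 0.21 and -0.22 in *K-Setd2KO* tumors 1 to 4. *K-Setd2KO* replicate 4 lay within the range of *K-Ctrl*, and the other *K-Setd2KO* tumors lay above it. Gene by gene, *K-Setd2KO* replicates 1, 2 and 3 were all above every *K-Ctrl* tumor in 60 of the 78 canonical members, beside 12.5% of all genes tested. This count was chosen after replicate 4 was seen to be low. Replicate 4 was below every *K-Ctrl* tumor in 30 members and above every one in 15. The shares of all genes for these 2 counts were not computed, so they only describe that tumor. The highest of the 8 tumors was *K-Setd2KO* replicate 2 in 53 members, replicate 3 in 12, replicate 1 in 11 and replicate 4 in 2, *Rpl34* and *Rps2*, and was a *K-Ctrl* tumor in 0.

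**Figure D3:**
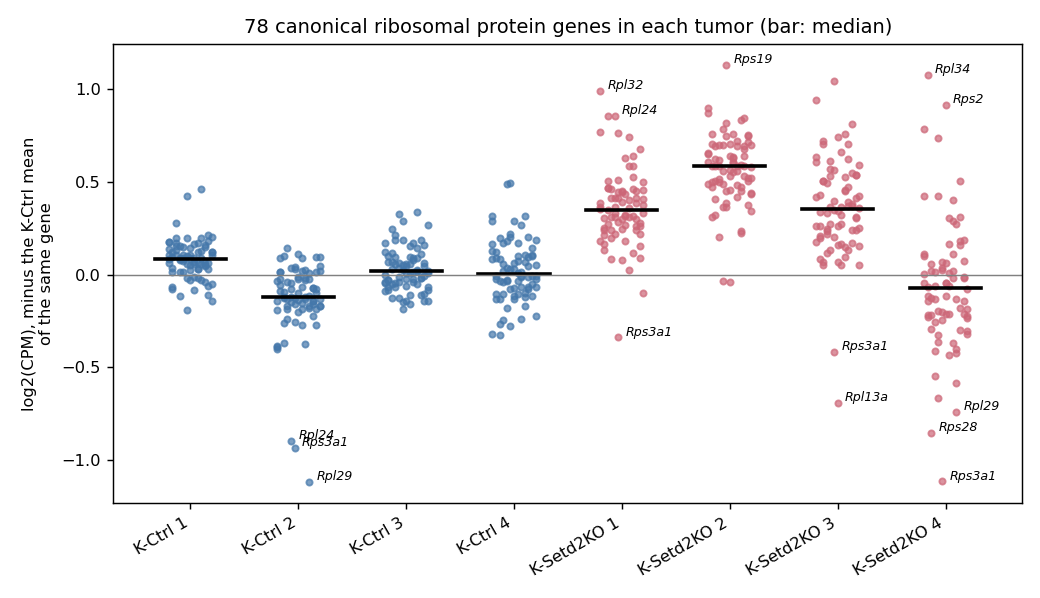
Each point is 1 of the 78 canonical members in 1 tumor, as log2 CPM minus that gene's mean over the 4 *K-Ctrl* tumors, and the bar is the median of the tumor. The medians of *K-Setd2KO* replicates 1 to 3 lie above those of the *K-Ctrl* tumors, that of replicate 4 lies among them, and the named genes, such as *Rpl29* in *K-Ctrl* replicate 2 at 32.5 CPM, lie apart from the rest of their tumor.

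Part of the spread between tumors was shared by the members. The median SD over tumors within a group was 0.237 (log2) for canonical members, and it was 0.143 after each tumor was scaled to the members' mean. For 2980 other genes of like level (mean log2 CPM between 6.08 and 9.39), the median SD was 0.218 without such scaling. These genes were not scaled to a mean of their own, so 0.143 has no like value beside it. Members spread more in *K-Setd2KO* than in *K-Ctrl*, with median SDs of 0.302 and 0.126 and a larger SD in *K-Setd2KO* for 72 of 78, while the other genes of like level had 0.231 and 0.177. Much of this came with 1 tumor, since without *K-Setd2KO* replicate 4 the median SD of the members in *K-Setd2KO* was 0.184, the SD was larger there for 53 of 78, and the SD of the members' mean fell from 0.264 to 0.118, against 0.0933 in *K-Ctrl* (a comparison chosen after seeing the data). The tumor in which members departed most from their common level was *K-Setd2KO* replicate 4, the shallowest library, where 8 members lay more than 0.5 (log2) from the scaled mean of the gene, against 1 to 3 in the other tumors.

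The steadiest members after this scaling were *Rps3*, *Rpl7*, *Rps24* and *Rpl8*, with SDs of 0.0552 to 0.0678 (log2), and the least steady were *Rpl29*, *Rps3a1* and *Rpl24*, with 0.574, 0.535 and 0.529. *Rpl29*, a small basic protein of the large subunit, was at 97.1, 32.5, 89.2 and 87.9 CPM in *K-Ctrl* and 106, 126, 115 and 42.3 CPM in *K-Setd2KO*. The low tumors were 1 of each group, *K-Ctrl* replicate 2 and *K-Setd2KO* replicate 4, and *Rpl29* did not differ between the groups beyond that spread (log2 fold change 0.35 ± 0.397 SE, adjusted p = 0.6, edgeR). *Rps28*, a short protein near the mRNA exit, was at 224, 143, 199.9 and 180.2 CPM against 334, 284, 301 and 102 CPM, lowest in the same 2 tumors.

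*Rps3a1*, a small-subunit protein near the platform (chromosome 3, 86137940 to 86142702, minus strand), fell into 2 levels that did not follow the groups. It was at 547, 213, 497 and 474 CPM in *K-Ctrl* tumors 1 to 4 and 322, 684, 305 and 188 CPM in *K-Setd2KO* tumors 1 to 4. *K-Ctrl* replicate 2 and *K-Setd2KO* replicates 1, 3 and 4 were low, at -0.41 to -0.76 (log2) from the scaled mean of the gene, and the other 4 tumors were 0.48 to 0.64 above it. The processed pseudogene *Rps3a3* (chromosome 13, 108670603 to 108671397, plus strand) went the other way, at 114, 220.4, 106 and 103 CPM in *K-Ctrl* and 265, 154, 260.4 and 176 CPM in *K-Setd2KO*. The ratio of *Rps3a3* to *Rps3a1* was 0.821 to 1.03 in the 4 tumors with low *Rps3a1* and 0.209 to 0.225 in the other 4. Of the 50-base words of the *Rps3a1* transcript, 71% also occur in transcripts of other genes. As counted, *Rps3a1* had a log2 fold change of -0.21 ± 0.41 (SE, adjusted p = 0.775, edgeR), and with the counts of *Rps3a2* and *Rps3a3* added it was 0.06, a sum chosen after the data were seen. The part of the copies in the split of *Rps3a1* was not tested.

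**Figure D4:**
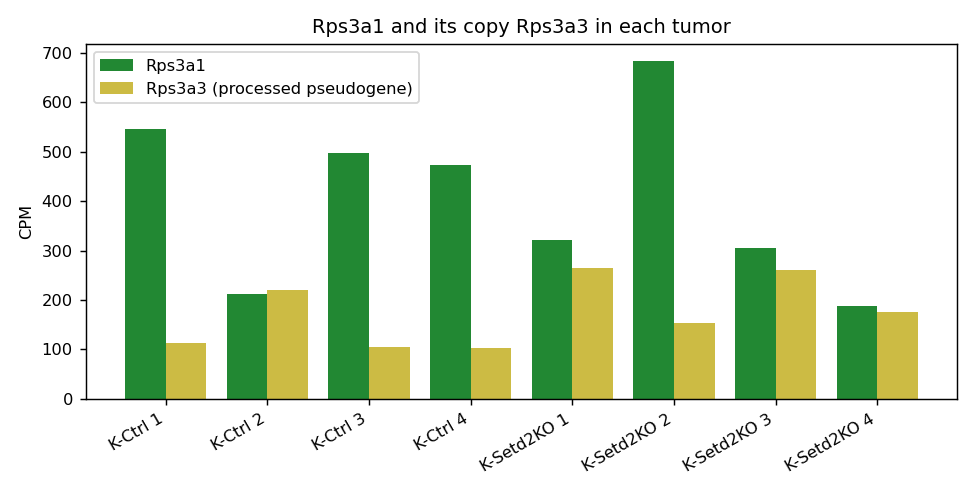
CPM of *Rps3a1* and of its processed pseudogene *Rps3a3* in each of the 8 tumors, on an axis that starts at 0. In *K-Ctrl* 2 and *K-Setd2KO* 1, 3 and 4 the bars are of like height (ratio 0.821 to 1.03), and in the other tumors *Rps3a3* is at 0.209 to 0.225 of *Rps3a1*.

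Levels per length varied far more between members than between groups. In *K-Ctrl*, the highest canonical members were *Rpl4*, *Rps24* and *Rps12*, at 962, 687 and 585 CPM per kilobase of exon, and the lowest were *Rpl24*, *Rpl34* and *Rpl13a*, at 3.08, 9.71 and 12.6. The spread over tumors was 109, 53.7 and 42.3 CPM per kilobase for *Rpl4*, *Rps24* and *Rps12* (SD, n = 4), so *Rpl4* stood above the other two by more than the SDs, and *Rps24* stood above *Rps12* by about the sum of theirs. The order was much alike in the 2 groups, with a Spearman correlation of 0.99 across the 78 members (a description, since the genes share the 8 libraries). It was not the same throughout, since in *K-Setd2KO* *Rpl17* (721 CPM per kilobase) lay just above *Rps12* (719), and *Rpl13a* (11.7) lay below *Rpl34* (15.2). The exon length of the table joins all annotated isoforms, so a member with long retained introns, such as *Rps15a* with 6270 bases, is divided by bases that its mature mRNA need not hold.

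*Rpl24*, a large-subunit protein that also touches the small subunit, was counted at 3.14, 1.6, 3.74 and 4.19 CPM in *K-Ctrl* and 5.39, 2.91, 4.43 and 1.88 CPM in *K-Setd2KO*, and *Rpl13a*, known from the interferon-gamma response, at 24.1 to 27.7 and 16.4 to 32.7 CPM. Neither passed the test between the groups (log2 fold changes 0.22 ± 0.415 and -0.09 ± 0.198 SE, adjusted p = 0.758 and 0.789, edgeR). Both overlap another annotated gene model on their own strand, *Gm28037* and *Gm45713*, and these models were at 0 counts in all 8 tumors. *Rpl13*, *Rpl19* and *Rps10* also overlap a gene on their own strand and were at 49.1, 368 and 75.5 CPM per kilobase. The part of these overlaps in the low levels was not tested. *Rpl34*, the other low member, overlaps no gene on its strand.

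The share of 50-base words that a member's transcript has in common with other genes ranged from 0 to 86.7%, with a median of 41%, and was over 50% in 30 members. Across the 78 canonical members its Pearson correlation was -0.04 with the log2 fold change and 0.02 with the level per length. The log2 fold change had r = 0.08 with exon length, 0.24 with GC content and -0.02 with level. These are descriptions across genes that share libraries.

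The paralogs were compared with their parents in each tumor as a log2 ratio of CPM. *Rpl22l1*, which can replace *Rpl22* and is known to be repressed by it (chromosome 3, 28805436 to 28807424, plus strand), was at 21.5, 20.3, 21.2 and 14.2 CPM in *K-Ctrl* and 41.1, 28.8, 51 and 29.1 CPM in *K-Setd2KO*. All *K-Setd2KO* tumors were higher, the log2 fold change was 0.96 ± 0.226 (SE, adjusted p = 0.0268, edgeR), and the call was kept in 13 of 18 settings. *Rpl22* itself was at 254 ± 12.5 and 275 ± 33 CPM (SD, n = 4 each), a log2 fold change of 0.11 ± 0.12 (SE, adjusted p = 0.57, edgeR). *Rpl22l1* thus stood at 7.59% of *Rpl22* in *K-Ctrl* against 13.8% in *K-Setd2KO*. The log2 ratio was 0.82 higher in *K-Setd2KO* without overlap (exact permutation p = 0.0286, the smallest that 4 against 4 allows, and 0.0714 after adjustment over 5 pairs), so it did not pass the adjusted test.

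*Rpl7l1*, which takes part in the assembly of the large subunit (chromosome 17, 46773907 to 46782656, minus strand), was at 81.2, 77.2, 83.1 and 85.6 CPM in *K-Ctrl* and 107, 109, 104 and 100.5 CPM in *K-Setd2KO*. It was the paralog with the least spread, without overlap and with a log2 fold change of 0.36 ± 0.0934 (SE, adjusted p = 0.0363, edgeR, called in 8 of 18 settings). *Rpl7* had a log2 fold change of 0.29 ± 0.165 (SE, adjusted p = 0.269, edgeR), and the log2 ratio of the pair differed by 0.09 (exact permutation p = 0.629). *Rps27l*, a p53-induced paralog, was at 63.5, 78.3, 54 and 63 CPM against 66.6, 70.2, 71.7 and 68.1 CPM. The groups overlapped (log2 fold change 0.1 ± 0.128 SE, adjusted p = 0.653, edgeR), and the ratio to *Rps27*, at 61.8% and 53.1%, differed by -0.2 on the log2 scale (exact permutation p = 0.371).

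The muscle paralog *Rpl3l* (chromosome 17, 24727820 to 24736143, plus strand) had 20, 17, 35 and 9 counts in *K-Ctrl* and 17, 8, 5 and 0 counts in *K-Setd2KO*. In CPM these were 1.23, 1.43, 1.62 and 0.803 against 0.873, 0.612, 0.461 and 0, where 3 counts in the last tumor would be 0.513 CPM. The groups overlapped at 0.803 and 0.873 CPM, and the log2 fold change of -1.24 ± 0.609 (SE) did not pass (adjusted p = 0.209, edgeR). *Rpl3l* reached 0.274% of *Rpl3* in *K-Ctrl* but 0.0694% in *K-Setd2KO*. The log2 ratio differed by -2.05 without overlap (exact permutation p = 0.0286, adjusted 0.0714), on few counts and with *Rpl3* itself higher. Cardiac muscle markers, at 163, 126, 88.1 and 261 CPM in *K-Ctrl* and 92.4, 229, 120.2 and 44 CPM in *K-Setd2KO*, were highest in tumors other than the one where *Rpl3l* was, and both were lowest in *K-Setd2KO* replicate 4. The part of muscle tissue was not tested.

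*Rps4l*, an autosomal retrocopy of *Rps4x*, was at 7.76, 2.52, 14 and 5.62 CPM in *K-Ctrl* and 3.03, 10.5, 5.08 and 2.22 CPM in *K-Setd2KO*. Its lowest values, in *K-Setd2KO* replicates 4 and 1 and *K-Ctrl* replicate 2, cross the groups, and the log2 ratio to *Rps4x* differed by -0.73 with overlapping groups (exact permutation p = 0.257). The testis paralog *Rpl10l* had 0 counts in all 8 tumors and *Rpl39l* 0 to 20 counts, and neither was tested. Germ cell markers were likewise at 0.268 to 1.71 CPM in sum.

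**Figure D5:**
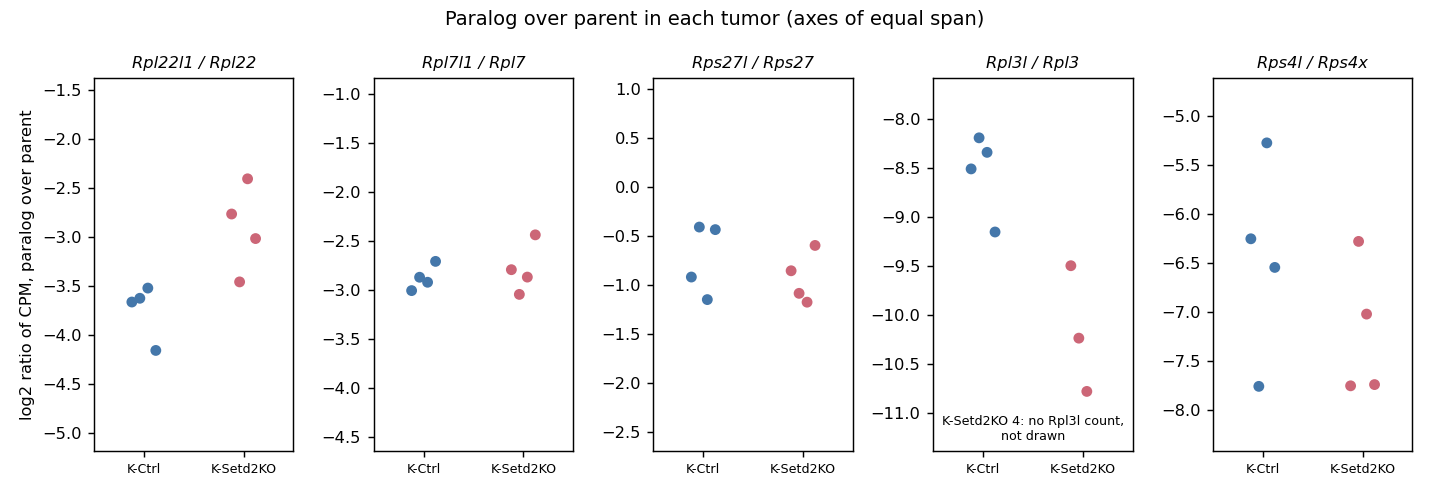
Log2 ratio of CPM between each paralog and its parent in each tumor, without the prior count used for the test, on axes of equal span. For *Rpl22l1* all 4 *K-Setd2KO* tumors lie above the *K-Ctrl* tumors, for *Rpl3l* the drawn tumors lie below them (*K-Setd2KO* replicate 4 had 0 *Rpl3l* counts and is not drawn), and the other 3 pairs overlap.

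Other genes of the same pathway were counted from lists, beside 4.97% of all genes called higher and 7.74% called lower. Of 16 other mRNAs with a known TOP tract, such as elongation and initiation factors, 0 were called higher and 1 lower, *Vim*, the mesenchymal filament protein (log2 fold change -1.97 ± 0.332 SE, adjusted p = 0.0102, edgeR), with a median of 0.17 and 13 above 0. The 4 TOP-type snoRNA host RNAs had a median of 0.27, with 0 called. Of 11 tested chaperones and importers of ribosomal proteins, 0 were called and the median was -0.1, 4 of them above 0. Of 78 tested proteins of the mitochondrial ribosome, 2 were called higher (*Mrps7*, 0.62 ± 0.135, and *Mrpl51*, 0.45 ± 0.127, log2 fold change ± SE) and 1 lower (*Mrps6*, -1.21 ± 0.245), with a median of 0.11. Genes whose symbol marks them as a ribosomal protein pseudogene by the ending -ps, which leaves out *Rps3a2*, *Rps3a3* and others named in another way, had a median of 0.33 over the 50 tested, with 0 called, and made up 0.0238 to 0.0352% of counts in the 8 tumors.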

How the data were processed

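The deposited table holds raw counts per gene with a column for each tumor, not normalized by the authors. The submitters' processing notes name STAR 2.5.2b, featureCounts 1.5.0-p1 and GRCm38.p4; strand and multiple-mapping settings are not given in the sources used here. Symbols, gene types and overlaps came from GENCODE M21, in which 48349 of 48709 identifiers (99.26%) were found. CPM used TMM-scaled library sizes. Log ratios used a prior count of 2, with 0.5 as an alternative. Genotypes were compared with edgeR 4.0.16 in R 4.3.3 (filterByExpr, TMM, robust quasi-likelihood test, 14929 genes, adjusted p threshold 0.05). Standard errors were derived from the log2 fold change and its F value (size over the root of F). The study used DESeq2, which together with limma voom (3.58.1) served as an alternative (DESeq2 1.42.0). Further alternatives were RLE and upper-quartile factors, factors without the members, no filter, at least 10 counts in every tumor, exon length trend removed, a sex term from *Xist* and Y-linked counts, a replicate block, and leaving out each tumor. Paralog ratios used a two-sided exact test over 70 permutations. On simulated counts with the same dispersion for every gene, the test called 14 of 50 genes changed by 1 upward on the log2 scale. It called 50 of 50 changed by 2 upward, and 5 of 14955 unchanged genes. Downward it called 20 of 49 genes changed by 1 and 43 of 46 changed by 2. The dispersion was not taken from the members, and most members differed by less than 1, so these rates do not give the power for them. No pair of libraries was a copy (lowest chi-square per degree of freedom 30.5).

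Named members were the paralogs with their parents, members called, the 4 highest and 4 lowest log2 fold changes, the 3 highest and 3 lowest levels per length, the 3 largest departures in each direction, and members with a known role. Members, lists and tests were chosen with earlier results of these data known. Other members (*Rpl29*, *Rps28*, *Rps2*, *Rps15a*, the steadiest members, those overlapping another gene) were named after their values were seen. Results of 1 tested member and of 1 related gene, and the engineered allele of the mice, are not reported here.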

Additional observations from a re-analysis of the deposited data

Results flagged for a closer look

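Each group of 4 tumors was examined for 1 tumor far from the other 3, over 82 members, 5 paralog ratios and the members' share of counts, 176 groups in all. In 7 groups the gap from the extreme tumor to its neighbour was a share of the range above Dixon's critical value for 4 values, where chance flags about 1 in 20 groups, or 8.8. *K-Setd2KO* replicate 4 was low for *Rpl31* (196 CPM, the others 296 to 313), *Rpl37a* (128 CPM, the others 263 to 274) and *Rps7* (271 CPM, the others 390.0 to 412). *K-Setd2KO* replicate 2 was high for *Rplp2* (457 CPM, the others 334 to 338) and *Fau* (433 CPM, the others 303 to 311). In *K-Ctrl*, replicate 4 was high for *Rplp0* (479.6 CPM, the others 298 to 312) and replicate 2 was low for *Rpl29* (32.5 CPM, the others 87.9 to 97.1).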

How the results depend on the processing

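The count of called members was 8 and moved with the processing: 14 of 83 with DESeq2 (4.37% of all genes called higher), 5 of 83 with no filter (2.16%), 4 with a sex term (3.03%) and 2 to 18 when 1 tumor was left out (1.49 to 5.67%). With the replicate number as a block it was 3 (2.7% of all genes), and the median log2 fold change was 0.3; same-numbered tumors did not deviate together (correlations -0.0742, -0.0299, 0.191 and -0.0232), so the pairing was not taken as real. Limma voom, RLE or upper-quartile factors, the count minimum of 10 and the length trend gave 6 to 8 (4.6 to 5.29% of all genes). Every called member kept its direction in all 18 settings, and the median over members stayed between 0.22 and 0.42. Relative to the members' mean, a scale set by the members themselves, 0 to 2 members were called with 1 tumor left out (2 without *K-Setd2KO* replicate 2). The shares of all genes called on that scale are not given here. The ratio *Rpl22l1* to *Rpl22* differed by 0.66 to 1.01 and *Rpl3l* to *Rpl3* by -2.43 to -1.48 with 1 tumor left out. The exact p rose to 0.0571 for both without any 1 of the *K-Ctrl* tumors. With a prior count of 0.5 in place of 2, the differences were 0.83 for *Rpl22l1* to *Rpl22* and -2.59 for *Rpl3l* to *Rpl3*. With 1 tumor left out, *Rpl7l1* to *Rpl7* gave -0.03 to 0.17, below 0 without *K-Setd2KO* replicate 4. Signs near 0 changed for *Rpsa* (0 with voom and with the block, -0.01 with the minimum of 10, -0.04 with the length trend, -0.12 to 0.11 with 1 tumor left out), *Rpl24* (-0.03 without *K-Setd2KO* replicate 1), *Rpl13a* (-0.26 to 0.06 with 1 tumor left out) and *Rps3a1* (0.09 with the sex term, -0.67 to 0.01 with 1 tumor left out, 0.06 summed with its copies). The causes were not tested.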
